A study of Mus musculus with 2 samples.

Results

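The Wnt ligands, their receptors, their secreted antagonists and a few further genes of the same pathway were compared between mouse embryonic fibroblasts of 2 genotypes. The members were the probe sets whose only gene symbol in the platform annotation was a numbered Wnt, Fzd1 to Fzd10, Sfrp1 to Sfrp5, Dkk1 to Dkk4, Rspo1 to Rspo4, Lrp5, Lrp6, Ror1, Ror2, Wif1, Wls, Porcn, Axin2 or Lef1. The table held no probe set with the symbol Sfrp3, and Frzb, the other name of that gene, was kept outside. This rule gave 97 probe sets and 50 genes, of 45037 probe sets and 18193 genes in all. It used no measured value.

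The wild-type culture and the culture homozygous for Phc2 L307R were both of the strain C57BL/6, at passage 1 and derived from embryos of day 12.5. Both grew in medium with fetal calf serum on gelatin-coated dishes, without a further treatment named in the labels. The protein Phc2 belongs to Polycomb repressive complex 1, a silencer of developmental genes, and the substitution L307R alters the SAM domain by which its molecules form polymers. Total RNA of each culture was labelled with biotin and hybridised to 1 Affymetrix array, and the labels do not give the number of embryos behind a culture. Neither genotype has a second array. Precision is therefore limited by the number of arrays, no difference was tested, and every ratio is one between 2 cultures.

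Wnt proteins are secreted, lipid-modified ligands that bind Frizzled receptors at the surface of the receiving cell. With the co-receptors Lrp5 and Lrp6 they stabilise beta-catenin, which enters the nucleus and acts with Lef1 and Tcf proteins on target genes such as Axin2. With Ror1 and Ror2 they act on cell polarity and movement without beta-catenin. In the embryo, Wnt signals pattern the limb and trunk mesenchyme from which such fibroblasts are grown, and Polycomb complexes are known to occupy many genes of this pathway.

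Signals are linear intensities on a scale on which the trimmed mean of each array was 500.0. The floor below which signals were taken as not measured was 94.8, the higher of the median signals of the arrays. The brightest probe set, by mean log2 signal, stood for each gene, and the gene was called measured when either array exceeded the floor there. Lower signals were set to the floor, so that a ratio resting on 1 such signal is a bound, given as "at least" or "or lower". Ratios are log2 values of Phc2 L307R minus wild type, and a ratio of 1 is a 2-fold difference. The technical spread is the SD of the log2 ratio between measured probe sets of 1 gene, 0.32 over 5460 genes, and 0.33 over the 15 members with at least 2 measured probe sets.

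Of the 10 fibroblast markers (Col1a1, Vim, Pdgfra and others), all were measured, 8 with a ratio above 0. Their median log2 ratio was 0.36, and their signals summed to 111462 on the wild-type array and 145283 on the other. All 8 chondrocyte markers were measured, 7 with a ratio above 0 at a median of 0.91. At least 2-fold higher were 4 of the 8, beside 0.579% of all measured genes. The signals of the 8 summed to 5947.8 and 9046.3. The 4 smooth muscle markers had a median of 0.40, with summed signals of 44709.4 and 58358.8. For osteoblasts, 3 of 7 markers (Ibsp at 2.12, Alpl and Sp7) could be read, at a median of 0.72, and Dmp1 lay below the floor. The signals of these 4 summed to 465.8 and 1317.5. The endothelial markers Pecam1, Cdh5 and Vwf and the macrophage markers Ptprc and C1qa lay below the floor on both arrays. The other 3 endothelial markers had a median of 0.05, 2 of them with a ratio above 0. Emcn was more than 2-fold lower, with 210.8 in wild type and 94.9 in Phc2 L307R, just above the floor. The other 4 macrophage markers had a median of 0.56, 3 of them with a ratio above 0. Laptm5 was at least 2-fold higher, with 127.7 and 256, and Cd68 was at -0.11. Over all 6 markers of each list, those below the floor included, the signals summed to 649.4 and 620.2 for endothelium and to 525.9 and 797.4 for macrophages. Of 6 markers each, 5 were measured for skeletal muscle (median 0.18), 4 for neural cells (-0.04) and 1 for epithelium (-0.31). The part of these cell types in the ratios below was not tested, and in such bulk RNA a change in the share of a cell type and a change in RNA per cell cannot be told apart.

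Of the 50 members 37 were measured, 29 of them above the floor on both arrays. None of the 37 had a ratio past 2-fold, beside 1.11% of all 11408 measured genes (0.579% higher and 0.535% lower). For the 8 measured through 1 array the ratio is a bound, so a larger difference may lie below the floor. At a size of 1.5-fold, 5 of the 37 were higher in Phc2 L307R (Wnt2, Lrp5, Wnt6, Fzd2 and Axin2) and none lower, beside 4.19% and 3.25% of all measured genes, together 7.44%. The median log2 ratio of the 37 was 0.15, and that of all measured genes was 0.06. A ratio above 0 was found in 26 of the 37, beside 59.1% of all measured genes. Among the 29 members above the floor on both arrays it was found in 23, at a median of 0.16. By more than the SD between probe sets, 13 members were higher and 5 lower, beside 16.8% and 11.0% of all measured genes. Members measured through 1 array alone had to differ, so these counts describe the members and support nothing further.

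**Figure D1:**
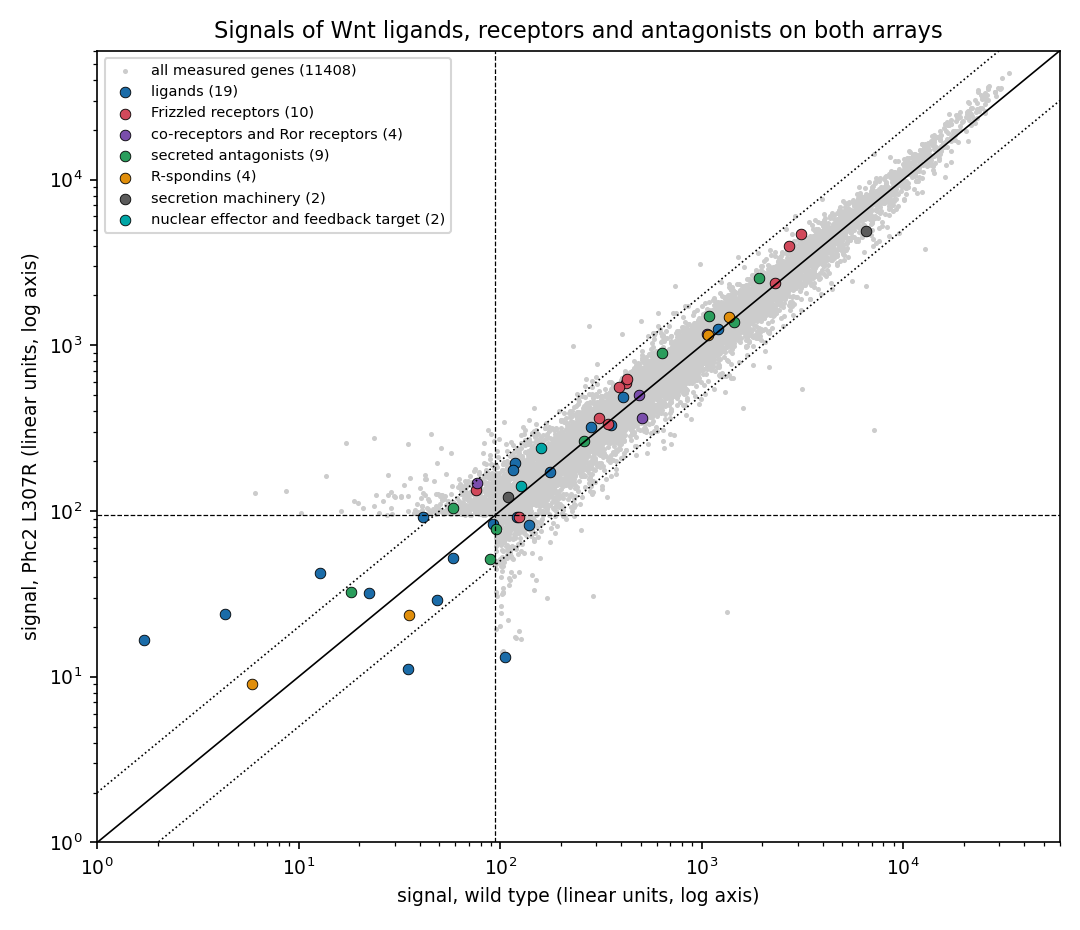
Signal of each of the 50 members in wild type (horizontal, log axis) and in Phc2 L307R (vertical, log axis), coloured by class, over all 11408 measured genes in grey. The solid line marks equal signals, the dotted lines a 2-fold difference and the dashed lines the floor of 94.8; of the members measured, only Wnt3a, at 105.9 and 13.1, lies outside the dotted lines, and its floored ratio is a bound well inside them.

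The ligands went in both directions. Of 19 Wnt genes 10 were measured, 5 with a ratio above 0 and 5 below, at a median log2 ratio of 0.01. Wnt2, a ligand of lung and heart mesenchyme, gave 118.7 on the wild-type array and 193.8 on the Phc2 L307R array, a log2 ratio of 0.71. Wnt6, a ligand of surface ectoderm, had 116.4 and 177.7, a ratio of 0.61, while its second probe set lay below the floor. Both genes were higher in Phc2 L307R by more than the technical spread, at signals close to the floor. Wnt4, a ligand of kidney and gonad development, had 407.6 and 486.3 (0.25), and its second probe set gave 122.6 and 134.2 (0.13). Wnt11, which acts on cell movement without beta-catenin, had 283.4 and 323.8 (0.19).

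Wnt5a, the main ligand of the branch without beta-catenin in limb mesenchyme, was not read alike by its 4 probe sets. The brightest had 1201.5 in wild type and 1251.1 in Phc2 L307R, a ratio of 0.06. The next had 1057.8 and 796.5, a ratio of -0.41. The remaining pair had 448.2 and 315.9 (-0.50), and 114.4 and 78.8 (-0.27 or lower). So 3 of the 4 were lower in Phc2 L307R, and the probe set chosen by brightness was the exception. The mean of all 4 was -0.28.

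Wnt9a, a ligand of the forming joint, had 354.3 and 331.9, a ratio of -0.09. Wnt7b had 176 and 171.5, a ratio of -0.04. These differences lay within the technical spread. The other measured ligands were above the floor in wild type alone, so that their ratios are bounds. Wnt7a, the ligand of dorsal limb ectoderm, had 139.9 and 81.9, a ratio of -0.56 or lower, and its further probe sets lay below the floor. Wnt10a had 121.4 and 92.5, a ratio of -0.36 or lower, and Wnt3a had 105.9 and 13.1, a ratio of -0.16 or lower. Wnt1, Wnt2b, Wnt3, Wnt5b, Wnt8a, Wnt8b, Wnt9b, Wnt10b and Wnt16 were under the floor in both cultures, at signals from 1.7 to 92. Wnt10b had 41.4 in wild type and 91.6 in Phc2 L307R, both under the floor, so no ratio is given.

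Secretion of the ligands needs Porcn, which attaches their lipid, and Wls, which carries them to the surface. Porcn had 109 and 121.5, a ratio of 0.16. At the brightest probe set of Wls the signals were 6545.5 (wild type) and 4914.8 (Phc2 L307R), a ratio of -0.41. Its other measured probe sets went the other way, with 4715.9 and 5156.1 (0.13) and 1225.3 and 1578 (0.36), and the mean of all 3 was 0.03. The direction for Wls thus depends on the probe set.

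The Frizzled genes, which encode the receptors that bind the ligands, were mostly higher in Phc2 L307R. All 10 were measured, 8 with a ratio above 0, beside 59.1% of all measured genes. By more than the technical spread 6 were higher and Fzd10 was lower, beside 16.8% and 11.0% of all measured genes. Of the 6, Fzd9 was above the floor in Phc2 L307R alone, and Fzd4 had a mean over its probe sets of 0.23, within the spread. The median log2 ratio of the 10 Frizzled genes was 0.50, beside 0.06 for all measured genes and 0.13 for the 27 measured members outside this class. Among the 8 above the floor on both arrays, 7 had a ratio above 0, at a median of 0.50. Of the 18 measured Frizzled probe sets, 14 had a ratio above 0, beside 54.3% of all 20737 measured probe sets with 1 gene symbol. None of these differences reached 2-fold, and the median was 0.39 with the mean over the probe sets of each gene.

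Fzd1, Fzd2 and Fzd7 are close relatives by sequence. Fzd2 had 3119.8 in wild type and 4725.1 in Phc2 L307R, a ratio of 0.60, and its other probe sets gave 0.41 and 0.44. Fzd1 had 2725.8 and 4001.9, a ratio of 0.55, and its second probe set had 441.3 and 655.3, a ratio of 0.57. For these 2 genes every measured probe set was higher by more than the technical spread. Fzd7 had 2317.9 and 2373.6 at its brighter probe set, a ratio of 0.03, and 158.9 and 216 at the dimmer, a ratio of 0.44. Its direction was the same at both, and the sizes were not.

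Fzd3 and Fzd6 form another pair of close relatives and are known from planar cell polarity. Fzd6 had 389 and 557.1, a ratio of 0.52, and its second measured probe set had 170.1 and 231.5, a ratio of 0.44. Fzd3 had 311.2 and 366.3 (0.24), and its other measured probe sets gave 0.68 and -0.01. Fzd6 was thus higher at both measured probe sets, while the probe sets of Fzd3 differed among themselves by 0.68.

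In the pair Fzd5 and Fzd8, Fzd8 had 425.8 and 624.1, a ratio of 0.55 resting on 1 measured probe set. Fzd5 had 344.9 and 336.6, a ratio of -0.04. Fzd4, a receptor for vascular growth in the retina that also binds norrin, had 421.7 and 590.6 (0.49) at 1 probe set and 452.2 and 445.9 (-0.02) at another of similar signal. The probe sets of Fzd4 therefore gave no single size. Fzd9 had 75.6 and 134.8, a ratio of at least 0.51, and Fzd10 had 124.8 and 92.2, a ratio of -0.40 or lower. Both lay near the floor.

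**Figure D2:**
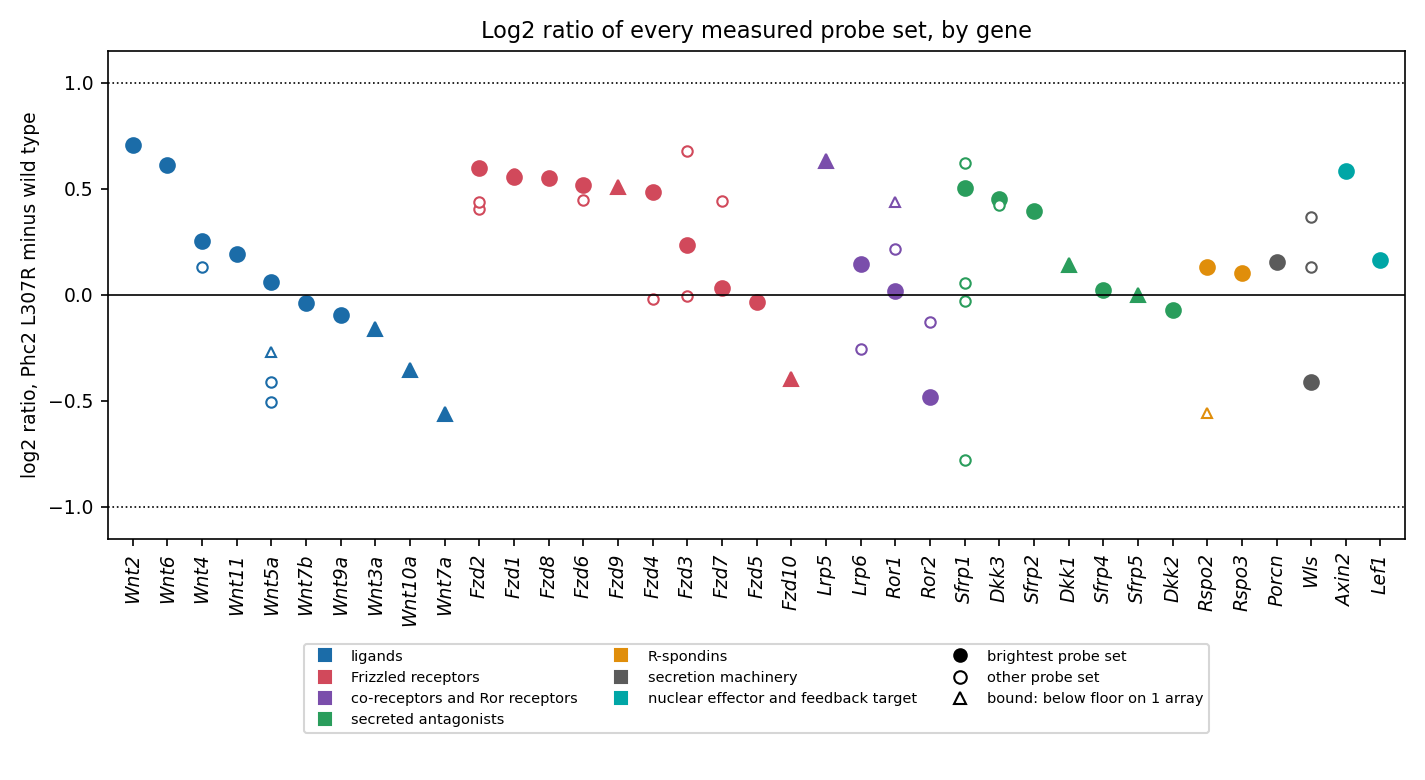
Log2 ratio (Phc2 L307R minus wild type) of each measured probe set of the 37 measured members, ordered by class and by the ratio of the brightest probe set (filled); open symbols are further probe sets, and triangles are bounds from a signal below the floor on 1 array. All symbols lie between the dotted lines of 2-fold; the 5 probe sets of Sfrp1 run from -0.78 to 0.62, while those of Fzd1, Fzd2, Fzd6 and Dkk3 lie close together above 0.

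Lrp5 and Lrp6 are the co-receptors of the beta-catenin branch. Lrp6 had 1063.9 and 1178.2 at its brighter probe set, a ratio of 0.15, and 294 and 246.4 at the other, a ratio of -0.25. Lrp5 had 76.5 in wild type, below the floor, and 146.9 in Phc2 L307R, a ratio of at least 0.63 at its only probe set. Lrp6 thus lay within the technical spread in both directions, and Lrp5 is known only as a bound.

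The receptor tyrosine kinases Ror1 and Ror2 bind Wnt5a. Ror2, which shapes limb and cartilage, had 509.1 in wild type and 364.3 in Phc2 L307R, a ratio of -0.48, and its second probe set had 163.1 and 149.1, a ratio of -0.13. It was the only one of the 15 members with several measured probe sets in which all were lower. Ror1 had 492 and 498.6, a ratio of 0.02, and its other probe sets gave 0.22 and at least 0.44. The ratios of Ror1 and Ror2 lay on either side of 0 at every measured probe set, but 0.02, 0.22 and -0.13 were within the technical spread. Centred on the median of all measured genes, the brightest probe set of Ror1 was at -0.04.

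Secreted antagonists bind the ligands (the Sfrp proteins and Wif1) or block the co-receptors (Dkk1, Dkk2 and Dkk4). Of 9 such genes 7 were measured, 5 with a ratio above 0, beside 59.1% of all measured genes. The median of the 7 was 0.14, which is the bound for Dkk1 and not a measured ratio. Dkk3, a relative of the Dkk proteins that does not act on the co-receptors in the same way, had 1094.7 and 1494.9 (0.45) and 740.7 and 993.5 (0.42). Its 2 probe sets were both higher by more than the technical spread. Sfrp2, an abundant product of mesenchyme, had 1935.9 and 2542.3, a ratio of 0.39 at its only probe set. Dkk2 had 1446 and 1377.1, a ratio of -0.07. Sfrp4 had 261.1 and 265.2, a ratio of 0.02. Neither of the latter pair differed by more than the technical spread.

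Sfrp1 had the widest disagreement among its own probe sets of any member, over a log2 range of 1.40. The brightest had 635.4 in wild type and 899.4 in Phc2 L307R, a ratio of 0.50, and another had 481.3 and 741.4, a ratio of 0.62. One with 523.3 and 305 gave -0.78. The remaining probe sets gave -0.03 and 0.05. All 5 lay above the floor on both arrays, and their mean was 0.07.

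Dkk1, the best-known inhibitor of the co-receptors, had 58.2 in wild type and 104.6 in Phc2 L307R, a ratio of at least 0.14. Sfrp5 had 94.9 and 77.9, with the wild-type signal just above the floor, and no size can be read from it. Dkk4 and Wif1 were under the floor in both cultures, at signals from 18.2 to 89.1.

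The R-spondins strengthen Wnt signals by keeping Frizzled receptors at the cell surface. Rspo3 had 1073.6 and 1152.2, a ratio of 0.10. Rspo2, known for its role in limb growth, had 1361.1 and 1492.2 at its bright probe set, a ratio of 0.13. A second, dim probe set of Rspo2 had 139.6 and 61.6, a ratio of -0.56 or lower. Rspo1 and Rspo4 lay below the floor, with signals from 5.9 to 35.3. The bright probe sets of this class thus differed by less than the technical spread.

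Axin2 is a feedback inhibitor transcribed in response to beta-catenin and is widely used to report the activity of that branch. It had 159.1 in wild type and 238.7 in Phc2 L307R, a ratio of 0.59, while its second probe set lay below the floor on both arrays. Lef1, a nuclear partner of beta-catenin, had 126.5 and 141.5, a ratio of 0.16. Both are dim signals resting on 1 probe set.

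Across all classes, 15 members had at least 2 measured probe sets. All were higher in 7 (Fzd1, Fzd2, Fzd6, Fzd7, Ror1, Dkk3 and Wnt4), all lower in 1 (Ror2), and the direction was mixed in 7. Among all 5460 genes with at least 2 measured probe sets these shares were 25.5%, 19.9% and 54.5%. A further 22 members rested on 1 measured probe set. Many members gave low signals. Dividing all measured genes into 5 equal groups by mean signal placed 14 of the 37 in the dimmest, where the SD of the log2 ratio over genes was 0.42, and 5 in the brightest, where it was 0.26.

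On the chromosome of Phc2, which is chromosome 4, lay 3 members. Rspo1, with 25 measured genes between it and Phc2, was below the floor. Wnt4 had 105 measured genes between, on the side of higher position, and Ror1 had 168 on the other side. The 6 Frizzled genes higher by more than the technical spread all lay on other chromosomes.

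Further genes of the pathway were taken from a list of 94, of which 90 had a probe set and 77 were measured. None differed 2-fold at its brightest probe set. The 7 measured probe sets of Ccnd2, a target gene named after its values were seen, ran from -1.17 to 0.33. At 1.5-fold, 3 of the 77 genes were higher (Ptk7, Daam2 and Ccn5) and 2 lower (Znrf3 and Camk2d), beside 4.19% and 3.25% of all measured genes. Of the 77, 49 had a ratio above 0, and the median was 0.09, against 0.06 for all measured genes. The list shares 7 genes between its classes.

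At the membrane, 18 of 22 modulators were measured, 12 with a ratio above 0, at a median of 0.14. Znrf3, a ubiquitin ligase that removes Frizzled receptors from the surface, had 354.2 in wild type and 216.8 in Phc2 L307R, a ratio of -0.71 at its only measured probe set. Ptk7, a receptor-like protein of planar polarity, had 702.2 and 1134.5, a ratio of 0.69, and Igfbp4, which binds insulin-like growth factors and can antagonise Wnt, had 5057.9 and 7398.8, a ratio of 0.55. All 6 measured probe sets of Igfbp4 were higher, from 0.34 to 0.67. The R-spondin receptor Lgr4 and the close relative of the Sfrp genes Frzb were picked out after their values were seen. They had ratios of 0.07 and -0.10.

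In the cytoplasm, 20 of 23 genes were measured, 11 with a ratio above 0, at a median of 0.01. Apc2, a relative of the scaffold Apc, had 141.9 and 79.6, a ratio of -0.58 or lower. Dact3, a protein that binds Dvl, had 1373.6 and 1879.1, a ratio of 0.45. Nkd1, a feedback inhibitor, had 191.4 and 143.7, a ratio of -0.41, and its 3 measured probe sets ranged from -0.71 to 0.40. In the nucleus, 14 of 16 genes were measured, 10 with a ratio above 0, at a median of 0.08. Bcl9, a cofactor of beta-catenin, was at -0.33, with another probe set at 0.64. The co-repressor Ctbp1 was at 0.33, and Cby1, an inhibitor of beta-catenin, at 0.32. Beta-catenin itself, Ctnnb1, picked out for its role after its values were seen, had 14668.2 and 17988, a ratio of 0.29, and its 3 measured probe sets lay between 0.24 and 0.30.

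In the branch of planar polarity and calcium, 13 of 17 genes were measured, 10 with a ratio above 0, at a median of 0.21. Daam2, a formin that links Dvl to the cytoskeleton, had 241.7 and 384.4, a ratio of 0.67. Camk2d, a calcium-dependent kinase, had 1409.2 and 896.6, a ratio of -0.65, although another of its 4 measured probe sets gave 0.16. The GTPase Rhoa had 11766.8 and 8349.4, a ratio of -0.49, and its second probe set gave 0.06. Neither Camk2d nor Rhoa was thus lower at all of its measured probe sets.

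Target genes of beta-catenin, 23 by list, had 17 measured members, at a median of -0.08. A ratio above 0 was found in 7, beside 59.1% of all measured genes, and 10 lay below 0. Besides Znrf3, the 2 of largest size were Ccn5, a matricellular protein with 429.2 and 656.9 (0.61), and Fosl1, a subunit of AP-1 with 1196.4 and 870.5 (-0.46). Myc, named after its values were seen, had 1887.1 and 1546.6, a ratio of -0.29. Axin2, at 0.59 on 1 measured probe set, was not counted in this list. Some listed genes had probe sets in both directions, among them Fn1 (-0.33 to 0.42) and Id2 (-0.36 to 0.09), named after their values were seen. The activity of the beta-catenin branch was not tested.

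**Figure D3:**
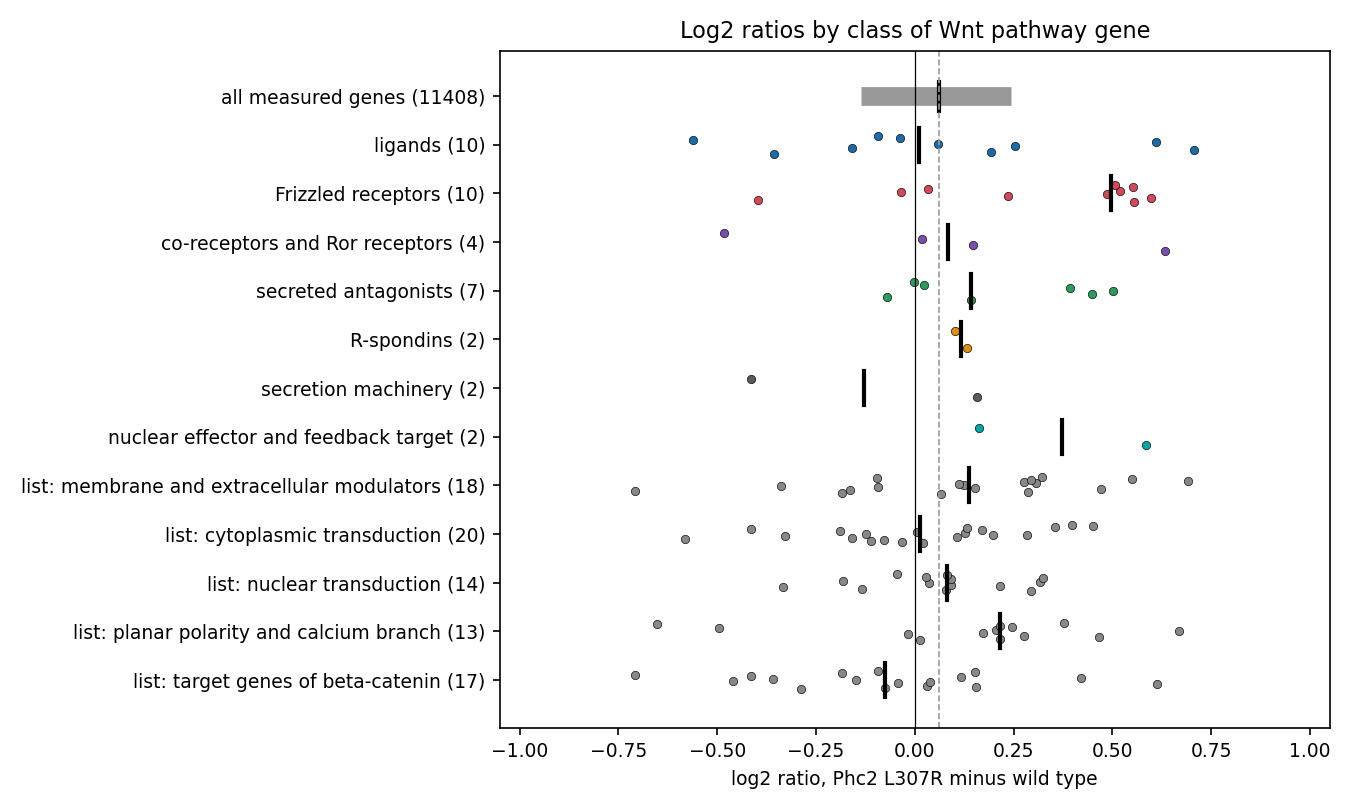
Log2 ratio (Phc2 L307R minus wild type) of each measured gene in the 7 classes of members (coloured) and the 5 classes of further pathway genes (grey points); black bars are medians, the grey bar spans the interquartile range of all 11408 measured genes and the dashed line is their median of 0.06. Numbers of measured genes stand in parentheses. Of the Frizzled genes 6 lie between 0.49 and 0.60 (Fzd9 as a bound), while the ligands lie on both sides of 0.

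The promoters of members were read from the RefSeq promoter table of GRCm38.p6, which gives 250 bases before to 50 after each start and held 33 of the 50 members. CG dinucleotides were counted because Polycomb complexes are known to settle at CG-rich promoters. The ratio of observed to expected CG exceeded 0.6 in 26 of the 33 genes (78.8%), against 59.9% of 14452 genes with a probe set. Among measured genes the shares were 81.8% of 22 members and 78.2% of 9264 genes, so they were alike by this share alone. The median number of CG was 31 in the measured members and 23 in the measured genes. Their median GC contents were 70.7% and 62.3%. The promoters of 3 members described above are shown with each CG in capitals, for Fzd1 (higher at both probe sets), Ror2 (lower at both) and Axin2 (the feedback target). The promoter of Dkk1 is shown with the TCF/LEF core CTTTGAA in capitals. Dkk1 and Lef1 were the 2 of 33 members that held a form of the core that was searched.
Fzd1, chr5:4758167-4758466, minus strand: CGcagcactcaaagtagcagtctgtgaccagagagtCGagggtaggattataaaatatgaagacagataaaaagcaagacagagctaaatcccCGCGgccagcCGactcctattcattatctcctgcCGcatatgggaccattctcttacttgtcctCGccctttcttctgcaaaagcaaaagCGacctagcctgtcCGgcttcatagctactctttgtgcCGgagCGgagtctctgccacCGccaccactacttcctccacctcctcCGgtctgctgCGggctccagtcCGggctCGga
Ror2, chr13:53286075-53286374, minus strand: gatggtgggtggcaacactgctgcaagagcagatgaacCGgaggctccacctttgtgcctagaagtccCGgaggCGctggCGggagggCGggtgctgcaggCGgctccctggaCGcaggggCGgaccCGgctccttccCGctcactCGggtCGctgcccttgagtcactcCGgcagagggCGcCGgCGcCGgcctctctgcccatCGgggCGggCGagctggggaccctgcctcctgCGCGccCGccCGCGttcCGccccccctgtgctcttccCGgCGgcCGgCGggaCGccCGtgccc
Axin2, chr11:108920099-108920398, plus strand: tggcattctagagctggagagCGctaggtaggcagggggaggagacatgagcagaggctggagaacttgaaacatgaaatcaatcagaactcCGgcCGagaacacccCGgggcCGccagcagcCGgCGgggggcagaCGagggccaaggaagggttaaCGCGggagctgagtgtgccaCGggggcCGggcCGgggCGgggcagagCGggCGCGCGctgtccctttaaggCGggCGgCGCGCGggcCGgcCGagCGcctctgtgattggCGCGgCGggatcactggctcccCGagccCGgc
Dkk1, chr19:30549447-30549746, minus strand: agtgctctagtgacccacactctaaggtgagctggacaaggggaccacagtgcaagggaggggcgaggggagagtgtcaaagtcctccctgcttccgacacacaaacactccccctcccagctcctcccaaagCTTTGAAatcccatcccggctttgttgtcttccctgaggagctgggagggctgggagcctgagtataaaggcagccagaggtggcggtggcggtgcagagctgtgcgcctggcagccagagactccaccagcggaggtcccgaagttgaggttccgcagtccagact

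These windows held 16 CG in Fzd1, 32 in Ror2, 31 in Axin2 and 9 in Dkk1, and the ratios of observed to expected were 0.75, 0.77, 0.89 and 0.33. The windows of Fzd1 and Ror2 thus had nearly the same ratio of observed to expected CG. They differed in the number of CG and in GC content, at 54% and 74.7%. A relation between CG content and the ratios of expression was not tested. The TCF/LEF cores searched were CTTTGAA and CTTTGTA on both strands, the second pair being TTCAAAG and TACAAAG. They were found in 6.06% of the 33 members and 7.97% of genes with a probe set. Among measured genes the order was the opposite, with 9.09% of 22 members, which is 2 genes, and 6.93% of 9264 genes. In Dkk1 the core CTTTGAA began 117 bases before the start site, and in Lef1 it lay at 1 of 4 listed starts. None of the cores searched was found in the window of Axin2. Other forms of the TCF/LEF core were not searched in any window, so these shares cover the named forms alone.

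**Figure D4:**
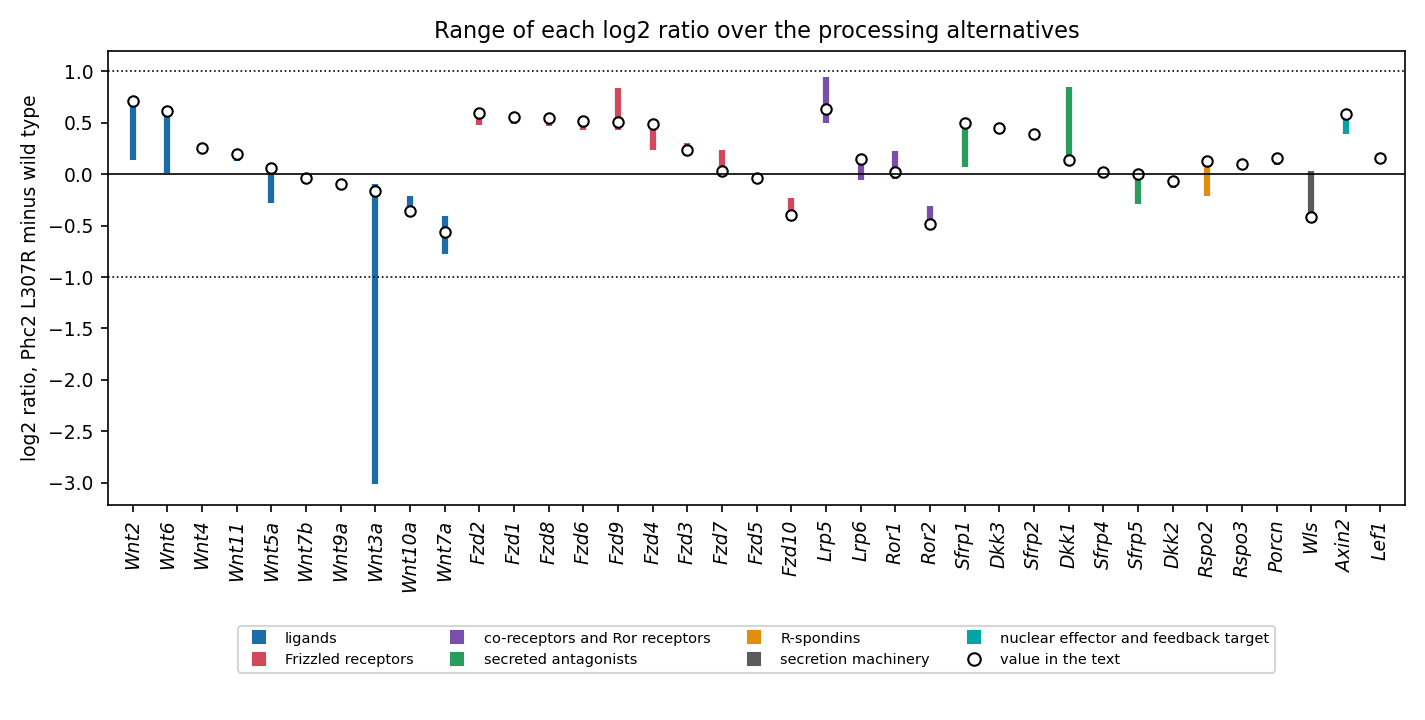
Lowest to highest log2 ratio (Phc2 L307R minus wild type) of each measured member over the value given in the text (open circle) and the 9 alternative ways of processing, as vertical bars coloured by class; dotted lines mark a 2-fold difference. Only Wnt3a passes a dotted line, at -3.02 without a floor; Fzd1, Fzd2, Fzd6, Fzd8 and Dkk3 keep short bars above 0.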

How the data were processed

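Both samples were measured on 1 Affymetrix array each. The authors deposited linear intensity values, 1 signal for each of 45101 probe sets per array; per the submitters' processing notes the tools were Affymetrix Expression Console and MAS5, which merges probe pairs into 1 signal. Both arrays had a mean of 500.0 after trimming 2% from either end. How they were scaled is not given in the sources, and no detection calls were used.

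The 64 control probe sets were left out. Of the others, 34945 carried 1 gene symbol, 932 several and 9160 none; symbols were updated through the RefSeq gene table of GRCm38.p6, which matched 34741. That table also gave the gene order on chromosome 4. Signals were raised to the floor and taken to log2 in Python 3.11.15 with pandas 2.3.3. The calculation was tested on simulated arrays with planted differences past 2-fold, in genes well above the floor on both arrays. That test does not cover the smaller ratios and dim signals of the members. Every measured member is named; in each class of the pathway list, up to 3 measured genes of largest absolute ratio are named, and others are said to have been chosen after their values were seen. The members, lists and settings were chosen with earlier results of these data known. The alternatives were quantile normalization, loess (span 0.4, 3 iterations), centring, other floors, a pseudocount, the mean over probe sets, removal of _x_at and _s_at probe sets, and other thresholds. Rows for some listed genes, among them Runx2, Spp1 and Tcf7, were not analysed here.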

Additional observations from a re-analysis of the deposited data

How the results depend on the processing

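With 1 array per genotype, no alternative tests these differences between cultures; the alternatives show only how far the values depend on processing. The count of members at least 2-fold lower was 0 and became 1 (Wnt3a) without a floor; none was 2-fold higher under any of the 9 alternatives to the values. At 1.5-fold, counted in the main setting alone, 5 members were higher, and 3 genes of the pathway list were higher and 2 lower. The 5 members depended on the setting. Centred on the median of all measured genes, Lrp5 was at 0.57, Wnt6 at 0.55, Fzd2 at 0.54 and Axin2 at 0.52. All of these then fell short of 1.5-fold, while Wnt2 at 0.64 did not. The median log2 ratio of the members was 0.085 and that of the pathway list 0.029 when centred on the median of all measured genes. Averaging the probe sets of each gene gave the Frizzled class a median of 0.39, and the alternatives run kept it between that and 0.50. The median of the secreted antagonists, set by the bound for Dkk1, took the value 0.39 at a floor of the 60th percentile, 0.39 without a floor, 0.38 with the floor as a pseudocount and 0.074 with the mean over probe sets. That of the secretion machinery, -0.13 in the main setting, took -0.41 at the floor of the 60th percentile, which leaves Wls alone, and turned to 0.092 with the mean over probe sets. The sign was the same in every setting run for 29 of 37 genes, 20 above 0 and 9 below; it was not for Fzd7, Lrp6, Ror1, Rspo2, Sfrp4, Sfrp5, Wls and Wnt5a. Of 322 values of single genes under an alternative, 13 moved by more than the SD between probe sets, among them Wnt2 to 0.14 and Wnt6 to 0.01 with the floor at the 60th percentile. Removal of _x_at and _s_at probe sets left every measured member at its main value. The counts of kept signs and moved values thus include values that could not move. No paired analysis was possible because each genotype has 1 array.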
